A study of Homo sapiens with 20 samples.

Results

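The transforming growth factor beta (TGF-beta) genes were described here in an RNA sequencing time course of EGF-induced epithelial-mesenchymal transition (EMT), a change in which epithelial cells lose their contacts and gain mobility. The set held 10 genes, found by their symbols among the 60271 genes of the count table: the ligands TGFB1, TGFB2 and TGFB3, the receptors TGFBR1 and TGFBR2, the signal transducers SMAD2, SMAD3 and SMAD4, and the inhibitors SMAD7 and SKIL. Of these, 9 passed the filter on low counts, and SMAD4 did not. The cells were MDA-MB-468, a single epithelial line of triple negative breast cancer, which is classed as lacking the oestrogen and progesterone receptors and ERBB2 amplification and carries many copies of the EGF receptor gene. The control was untreated, and the other 4 groups received EGF at 50 ng/mL, which acted for 12, 24, 48 or 72 h. The stated serum starvation before EGF was 24 h. Each group had 4 biological replicates, which gave 20 libraries. By the labels, the groups were started and stopped in parallel and EGF was added at different times. The labels do not say whether the change to serum-free medium was timed in the same way, or how long each group was without serum in all. Time on EGF therefore cannot be told apart from time without serum or in culture before EGF. No group received TGF-beta.

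TGF-beta is secreted in a latent form, held by a propeptide and by latent TGF-beta binding proteins, and is released by integrins, thrombospondin and proteases. The free ligand binds the type II receptor, which phosphorylates the type I receptor, and this phosphorylates SMAD2 and SMAD3. These join SMAD4 and move to the nucleus, where they act with other factors such as AP-1 on their target genes, while SMAD7 at the receptor and SKI and SKIL in the nucleus hold the signal back. In epithelial cells the pathway is best known for cell cycle arrest and for EMT, and MDA-MB-468 is known as a line with a homozygous deletion of SMAD4.

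Totals ranged from 15611961 to 25856953 counts per library. Levels are given as CPM (counts scaled to a common library total) after TMM scaling of the libraries. The mean share of mitochondrial genes was 10.9% in the control, 9.41% at 12 h and 15% at 72 h. The epithelial markers were detected in every library, with EPCAM at 138 to 225 CPM and EGFR at 3360 to 12100 CPM, while PGR had 0 counts in all 20 libraries. The oestrogen receptor gene ESR1 was low but detected in every library (1.91 to 6.53 CPM), as was ERBB2 (7.79 to 24.6 CPM). Of 10 markers of leukocytes, endothelium and fibroblasts, 8 (PTPRC, CD3E, VWF, COL1A2, COL3A1, PDGFRB, DCN and LUM) had at most 9 counts in any library. The other two were CD68 (0.804 to 28.0 CPM) and PECAM1 (0.221 to 5.17 CPM), and the summed level of all 10 was 3.11 to 4.48 CPM in the control and 27.0 to 31.8 CPM at 72 h. On the same strand, AC016876.2 shares 81.7% of the exon bases of CD68, so part of the CD68 counts could belong to it. Mitochondrial share and the summed marker level moved with EGF time, and their part in the results was not tested. In bulk RNA, fewer cells that express a gene and less of its RNA per cell cannot be told apart.

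Promoter sequence is shown for the 3 genes that set the main patterns below, which are an early rise (TGFB1), an early fall (TGFB3) and a lasting rise (SMAD3). Each window holds the 250 bases before a RefSeq transcription start (build GRCh38.p14), 5′ to 3′ on the strand of the gene, with motif matches in capitals. All 26 windows of the 10 genes were searched on both strands for the palindromic SMAD site GTCTAGAC, the shorter SMAD half-site CAGAC and the AP-1 site TGANTCA, which do not overlap each other in these windows. The TGFB1 window (chr19:41353923-41354172, minus strand) held none of them. For TGFB3 and SMAD3, which have several windows, a window with matches is shown. The TGFB3 window shown (chr14:75983012-75983261, minus strand) held half-sites 245 and 133 bases before the start, and the other (chr14:75981996-75982245) held no motif. The SMAD3 window shown (chr15:67125492-67125741, plus strand) belongs to an alternative start and held an AP-1 site 56 bases before it. The SMAD3 windows at chr15:67065352-67065601 and chr15:67098429-67098678 held no motif, and its remaining windows held half-sites only.
TGFB1: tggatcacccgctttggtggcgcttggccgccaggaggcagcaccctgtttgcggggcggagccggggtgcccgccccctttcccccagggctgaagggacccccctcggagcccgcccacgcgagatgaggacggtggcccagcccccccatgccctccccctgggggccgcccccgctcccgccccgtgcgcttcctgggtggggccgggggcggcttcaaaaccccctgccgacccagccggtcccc
TGFB3: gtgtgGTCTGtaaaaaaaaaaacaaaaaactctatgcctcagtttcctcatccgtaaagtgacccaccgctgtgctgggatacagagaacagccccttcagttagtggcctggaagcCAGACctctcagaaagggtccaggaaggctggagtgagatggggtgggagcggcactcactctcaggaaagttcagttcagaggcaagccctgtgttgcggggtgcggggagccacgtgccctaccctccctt
SMAD3: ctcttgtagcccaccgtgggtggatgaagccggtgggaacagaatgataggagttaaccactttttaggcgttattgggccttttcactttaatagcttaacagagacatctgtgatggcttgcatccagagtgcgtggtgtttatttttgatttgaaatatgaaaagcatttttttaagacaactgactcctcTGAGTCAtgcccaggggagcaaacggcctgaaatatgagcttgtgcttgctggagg

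Across the 26 windows, the palindrome was in 0, the AP-1 site in 1 and the half-site in 11, which belonged to 6 of the 10 genes. Windows of the same gene can overlap, and a half-site of TGFBR1 is counted more than once, so these are not counts of separate promoters. Over all 35116 windows of the same length, 0.182% held the palindrome, 6.57% the AP-1 site and 38% the half-site. A match is a run of letters in a window and not a measured binding site.

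EGF was followed by an early change of ligands, receptors and SMAD7 that was smaller or absent by 48 h, and by a rise of SMAD3 at all 4 times. At 12 h, 6 of the 9 genes tested passed the threshold of edgeR's quasi-likelihood test (Benjamini-Hochberg adjusted p under 0.05), when 69.4% of all 16522 genes tested did. TGFB1, TGFBR1, TGFBR2, SMAD3 and SMAD7 rose (5 genes, with 32.9% of all genes higher) and TGFB3 fell (1 gene, with 36.5% lower). At 24 h, 6 of 9 passed, against 58.8% of all genes. The same 5 genes rose (29.2% of all genes higher) and TGFB2 fell (29.6% lower). At 48 h, 2 of 9 passed, against 45.8% of all genes, and both TGFB2 and SMAD3 rose (24.0% of all genes higher and 21.8% lower). At 72 h, 3 of 9 passed, against 61.6% of all genes, with SMAD3 and SMAD7 higher (30.6% of all genes) and SMAD2 lower (31.0%). The counts of genes that passed were near the share of all genes at 12 and 24 h, and below it at 48 and 72 h. The median log2 fold change of the 9 genes was 0.52, 0.31, 0.12 and 0.10 in order of time, beside -0.05, -0.01, 0.01 and -0.01 over all genes. All 4 times were compared with the same 4 control libraries.

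**Figure D1:**
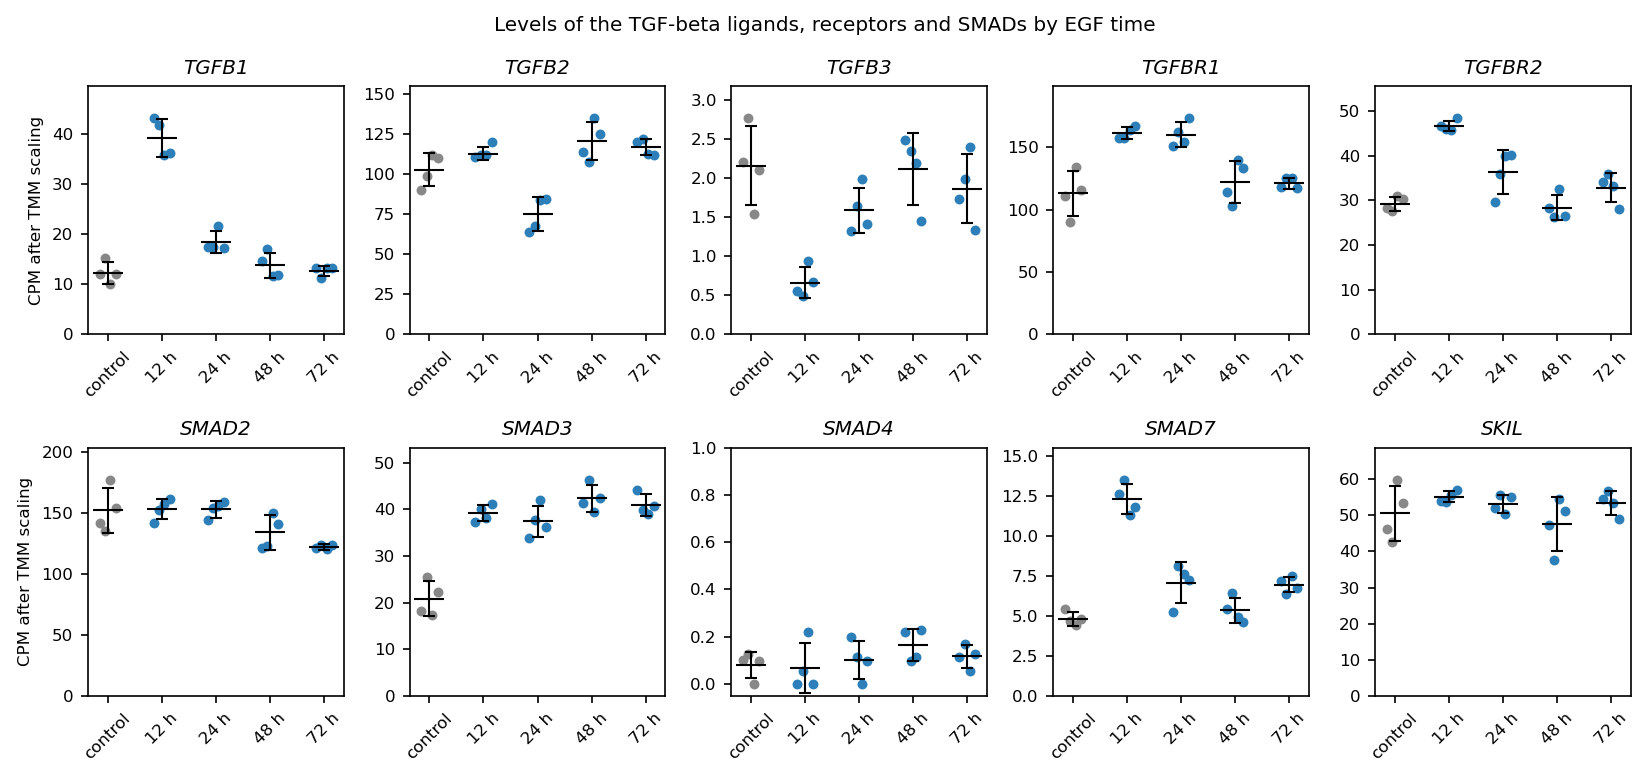
Level of each gene in CPM after TMM scaling (vertical axes, each from 0 or just under it, with scales that differ between panels) in the untreated control (grey) and at the 4 EGF times (blue). Points are single libraries, and the black bars are the mean and SD of 4 libraries. TGFB1 and SMAD7 peaked at 12 h, TGFB3 was lowest there, SMAD3 stayed above the control at every time, and SMAD4 was near 0 throughout.

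TGFB1 encodes the most widely expressed TGF-beta ligand and is annotated at chr19:41301587-41353911 on the minus strand. Its level was 12.0, 15.3, 10.1 and 12.0 CPM in the 4 control libraries and 43.2, 41.8, 35.9 and 36.3 CPM at 12 h. It was 17.4, 17.5, 21.7 and 17.3 CPM at 24 h, 14.6, 17, 11.7 and 11.9 CPM at 48 h, and 13.2, 11.3, 13.2 and 13.2 CPM at 72 h. All libraries at 12 h lay above all at 24 h, and these above all controls, while the 48 and 72 h libraries overlapped the controls. TGFB1 rose 3.18-fold at 12 h (log2 fold change 1.67 ± 0.12, SE; edgeR adjusted p = 2.53e-11, n = 4) and 1.49-fold at 24 h (0.58 ± 0.13; edgeR adjusted p = 0.000405). The log2 fold change was 0.16 at 48 h (95% interval -0.09 to 0.40) and 0.04 at 72 h (-0.21 to 0.29). Of its exon bases, 6.6% lie opposite exons of HNRNPUL1, and whether counting used the strand is not given in the sources used here.

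TGFB2 encodes a ligand that needs the co-receptor TGFBR3 to bind the type II receptor well, and is annotated at chr1:218346235-218444619 on the plus strand. It had 90.1, 99.2, 112 and 110 CPM in the controls, 111, 112, 112 and 120 CPM at 12 h, and 63.8, 68.0, 84.2 and 84.4 CPM at 24 h. At 48 h it had 114, 108, 135 and 125 CPM and at 72 h 120, 122, 113 and 112 CPM. The 24 h libraries lay below every other library, and the remaining groups overlapped the control. TGFB2 fell at 24 h (log2 fold change -0.45 ± 0.09, SE; edgeR adjusted p = 0.000138, n = 4). The rise at 48 h was small (0.23 ± 0.089; edgeR adjusted p = 0.038), with 3 of 4 libraries above all controls. It did not pass without control replicate 1 or 2 or EGF 48 h replicate 3 or 4 (log2 fold changes 0.17 to 0.21), with factors per gene taken from the deposited normalized values (0.02), or in a fit of the 8 libraries alone. The values at 12 h (0.14, 95% interval -0.03 to 0.32) and 72 h (0.18, 0.01 to 0.36) did not pass. At 72 h the interval lay just above 0, but the edgeR p before adjustment was 0.0523. The value at 72 h passed without control replicate 3 (0.23). The RNA TGFB2-OT1 shares 26.6% of the exon bases of TGFB2 on the same strand, so part of these counts could belong to it.

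TGFB3, the third ligand (chr14:75958099-75982991, minus strand), was the lowest of the genes tested. It had 2.21, 2.77, 1.54 and 2.11 CPM in the controls (36 to 66 counts) and 0.556, 0.490, 0.939 and 0.669 CPM at 12 h (9 to 17 counts). Its level was 1.33, 1.64, 1.99 and 1.42 CPM at 24 h, 2.49, 2.35, 2.20 and 1.45 CPM at 48 h, and 1.73, 1.99, 2.40 and 1.34 CPM at 72 h. The 12 h libraries lay below all others, and the later ones overlapped the controls. TGFB3 fell at 12 h (log2 fold change -1.70 ± 0.26, SE; edgeR adjusted p = 2.78e-06, n = 4), the time at which TGFB1 peaked. At 24 h the log2 fold change was -0.45 (95% interval -0.90 to 0.00), which among the alternatives passed without control replicate 3 (-0.58) and when libraries were scaled by size alone (-0.59). It was -0.03 (-0.46 to 0.40) at 48 h and -0.21 (-0.65 to 0.23) at 72 h.

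Compared per kilobase of merged exons, the ligands differed widely in level. In the control, TGFB2 stood at 20 CPM per kb ± 1.98 (SD, n = 4), TGFB1 at 3.81 ± 0.671 and TGFB3 at 0.439 ± 0.103. At 12 h, the level of TGFB1 was 12.1 ± 1.16 CPM per kb, still below that of TGFB2 (22.0 ± 0.806). As a share of the summed level of the 3 ligands, TGFB1 made up 15.8% ± 3.0 in the control (range 12.3 to 19.2%) and 35.4% ± 2.79 at 12 h (32.4 to 38.2%). The share was 27.8% ± 2.43 at 24 h (24.2 to 29.8%), and 15.3% ± 3.51 and 14.6% ± 1.34 at the later times. TGFB2 was the most abundant ligand in every library, with 61.4% to 67.2% of the sum at 12 h and 78.5% to 86.4% in the control. These shares are formed within a library and do not depend on how libraries are scaled, but they do depend on the exon lengths used. They were formed after the values were seen and were not tested.

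TGFBR1 encodes the type I receptor, the kinase that phosphorylates SMAD2 and SMAD3 (chr9:99104038-99154192, plus strand). It had 111, 90.2, 134 and 116 CPM in the controls, 157, 157, 164 and 167 CPM at 12 h, and 151, 162, 154 and 173 CPM at 24 h. At 48 h it had 114, 103, 140 and 133 CPM and at 72 h 118, 125, 125 and 117 CPM. The 12 and 24 h libraries all lay above the controls, and the later libraries overlapped them. TGFBR1 rose by a log2 fold change of 0.52 ± 0.095 (SE) at 12 h (edgeR adjusted p = 4.17e-05, n = 4) and 0.50 ± 0.095 at 24 h (edgeR adjusted p = 8.24e-05). At 48 and 72 h the log2 fold changes were 0.12 (95% interval -0.07 to 0.30) and 0.10 (-0.08 to 0.29), and the value at 72 h passed with factors per gene from the deposited normalized values (0.31).

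TGFBR2, the type II receptor to which the ligands bind first (chr3:30606502-30694142, plus strand), had 28.3, 27.7, 30.9 and 30.3 CPM in the controls and 46.8, 46.0, 45.7 and 48.4 CPM at 12 h. It had 29.7, 35.9, 39.9 and 40.1 CPM at 24 h, 28.4, 26.2, 32.5 and 26.6 CPM at 48 h, and 34.1, 36, 33.3 and 28.2 CPM at 72 h. The 12 h libraries lay above all others, and replicate 1 at 24 h lay within the controls. TGFBR2 rose at 12 h (log2 fold change 0.67 ± 0.092, SE; edgeR adjusted p = 6.05e-07, n = 4) and at 24 h (0.31 ± 0.092; edgeR adjusted p = 0.00566). Neither call held with factors per gene from the deposited normalized values, where the log2 fold changes were 0.49 and 0.10, and the one at 24 h was also lost when libraries were scaled by size alone (0.17). Values at 48 h (-0.04, 95% interval -0.22 to 0.14) and 72 h (0.17, -0.01 to 0.35) did not pass, and that at 72 h passed without EGF 72 h replicate 4 (0.24). Per kilobase, the level of TGFBR1 was 2.64 ± 0.303 times that of TGFBR2 in the control and 2.38 ± 0.0677 times at 12 h (SD, n = 4), with ranges that overlapped.

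The receptor-activated SMADs went different ways. SMAD3 (chr15:67063763-67195195, plus strand) had 18.2, 25.4, 17.3 and 22.2 CPM in the controls, 37.3, 40.1, 38.1 and 41.2 CPM at 12 h, and 33.9, 37.6, 41.9 and 36.3 CPM at 24 h. It had 41.3, 46.3, 39.5 and 42.5 CPM at 48 h and 44.2, 39.8, 39.0 and 40.7 CPM at 72 h. All 16 EGF libraries lay above all 4 controls. SMAD3 rose at every time, by log2 fold changes of 0.91, 0.85, 1.03 and 0.98 in order of time (SE 0.097 each, n = 4), with edgeR adjusted p values of 1.22e-08, 7.88e-08, 5.77e-09 and 5.75e-09. None of the 6 comparisons between EGF times passed for SMAD3 in edgeR, and 0 of them had an unadjusted p under 0.05. The lowest was 48 against 24 h, with a log2 difference of 0.18 (edgeR adjusted p = 0.114), and successive times did not pass in DESeq2 either.

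SMAD2 (chr18:47808957-47931146, minus strand) had 142, 135, 177 and 154 CPM in the controls, 142, 152, 157 and 161 CPM at 12 h, and 144, 154, 156 and 159 CPM at 24 h. At 48 h it had 121, 123, 150 and 141 CPM, and at 72 h 121, 124, 120 and 124 CPM. The 72 h group was the one in which all libraries lay below all controls, and SMAD2 fell at that time (log2 fold change -0.31 ± 0.079, SE; edgeR adjusted p = 0.00146, n = 4). The value at 48 h was -0.18 (95% interval -0.34 to -0.03; edgeR adjusted p = 0.0609) and passed without control replicate 1 or 2 or EGF 48 h replicate 3. At 12 and 24 h it was 0.01 in both cases, but the direction at 12 h turned with the scaling, to -0.28 with library size alone (edgeR adjusted p = 0.00337) and -0.15 with upper quartiles (0.0463). The level of SMAD3 relative to SMAD2 per kilobase, which is independent of the scaling but whose value depends on the exon lengths used (merged exons here), was 0.557 ± 0.151 in the control (SD, n = 4; range 0.390 to 0.753) and 1.02 ± 0.0404, 0.974 ± 0.0687, 1.28 ± 0.194 and 1.34 ± 0.0818 at the EGF times in order. No EGF library reached down to the control range (lowest 0.909). The ratio was not tested.

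**Figure D2:**
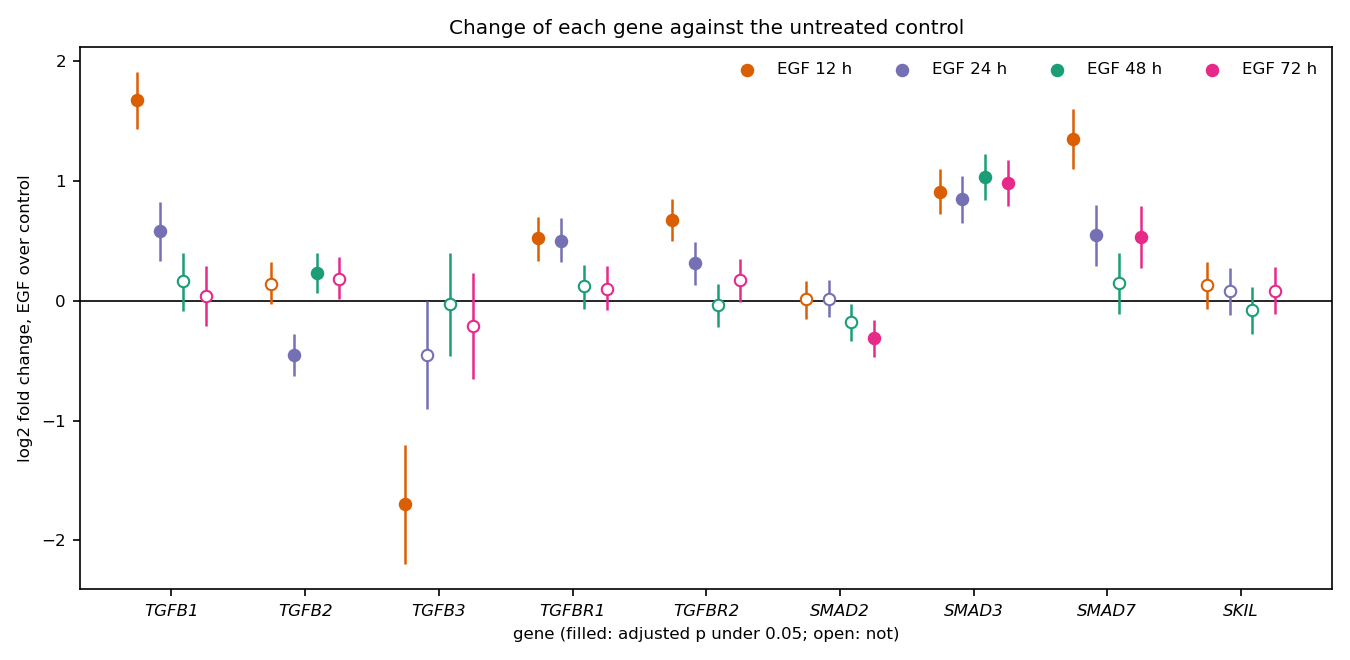
Log2 fold change of each gene against the untreated control (vertical axis) at the 4 EGF times (colours), with 95% intervals as lines. Filled points passed an adjusted p under 0.05 in edgeR's quasi-likelihood test and open points did not. The changes of TGFB1, TGFB3 and SMAD7 were largest at 12 h (1.67, -1.70 and 1.35), and those of SMAD3 lay between 0.85 and 1.03 at all times.

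SMAD4, the partner that SMAD2 and SMAD3 share, was near 0 in every library. It had 43 counts in all 20 libraries together, out of 403058855, or 0.107 CPM. No library had more than 5, 4 libraries had 0, and the highest level was 0.227 CPM. A count of 0 allows up to 0.128 to 0.186 CPM in those 4 libraries, counting error only. By group, the level was 0.0807 CPM ± 0.0554 in the control (SD, n = 4), and 0.0689 ± 0.105, 0.102 ± 0.0811, 0.165 ± 0.0686 and 0.117 ± 0.0474 CPM at the EGF times in order. Each EGF group overlapped the control. At this depth no difference between the groups could be shown, and no fold change is given. Per kilobase, SMAD4 stood at 0.00615 CPM in the control, against 4.18 for SMAD2 and 2.28 for SMAD3.

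The genes beside SMAD4 were looked at in the same way, as all protein-coding genes within 1 Mb of it in GENCODE 29. SMAD4 lies at chr18:51028394-51085045 on the plus strand. Next to it, ELAC1, a tRNA-processing nuclease 40.3 kb before it, had 0 to 16 counts per library, and AC091551.1, which overlaps SMAD4, had 0 to 2. Farther out on both sides, counts were high. ME2, a mitochondrial malic enzyme 74.1 kb before SMAD4, had 1355 to 2574 counts, and MEX3C, an RNA-binding ubiquitin ligase 89.5 kb after it, had 1282 to 3673. Also on the side before SMAD4, MRO (1 to 13 counts), MAPK4 (0 to 14) and CFAP53 (0 to 15) were low, while SKA1 (222 to 1077), CXXC1 (127 to 231) and MBD1 (726 to 1286) were not. RNA counts do not show whether a gene is present in the genome, and DNA was not measured in these samples.

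**Figure D3:**
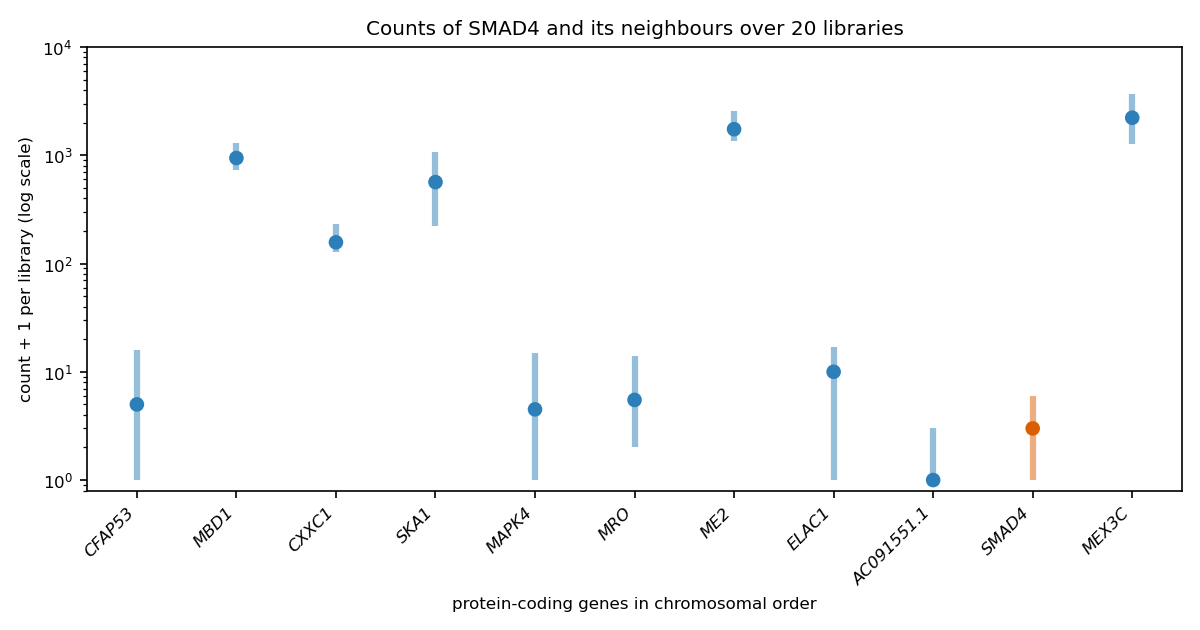
Counts per library plus 1 (log axis) for SMAD4 (orange) and the other protein-coding genes within 1 Mb of it (blue), in the order in which they lie on the chromosome. Points are medians and bars run from the lowest to the highest of 20 libraries. SMAD4, ELAC1 and AC091551.1 lie at 16 counts or fewer between ME2 and MEX3C, which have at least 1282.

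The inhibitors differed from each other. SMAD7, which blocks the type I receptor and brings ubiquitin ligases to it, lies at chr18:48919853-48952052 on the minus strand. It had 5.42, 4.67, 4.4 and 4.81 CPM in the controls and 12.6, 13.5, 11.3 and 11.8 CPM at 12 h. It had 5.24, 8.14, 7.63 and 7.27 CPM at 24 h, 5.43, 6.41, 4.90 and 4.62 CPM at 48 h, and 7.17, 6.37, 7.48 and 6.77 CPM at 72 h. The 12 and 72 h libraries lay above all controls, the 48 h libraries overlapped them, and at 24 h replicate 1 did. SMAD7 rose 2.55-fold at 12 h (log2 fold change 1.35 ± 0.13, SE; edgeR adjusted p = 1.45e-09, n = 4), 1.46-fold at 24 h (0.55 ± 0.13; edgeR adjusted p = 0.000897) and 1.44-fold at 72 h (0.53 ± 0.13; edgeR adjusted p = 0.00115). At 48 h the log2 fold change was 0.15 (95% interval -0.11 to 0.40).

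SKIL encodes SnoN, a nuclear co-repressor of the SMAD complex (chr3:170357678-170396835, plus strand). It had 46.1, 42.6, 59.8 and 53.3 CPM in the controls, 53.9, 53.7, 55.5 and 57.1 CPM at 12 h, and 52.0, 55.5, 50.3 and 55.1 CPM at 24 h. At 48 h it had 47.4, 37.5, 54.5 and 51.2 CPM, and at 72 h 54.6, 56.6, 53.3 and 49.0 CPM. Every group overlapped the control. SKIL passed at no time, with log2 fold changes of 0.13 (95% interval -0.07 to 0.32), 0.08 (-0.12 to 0.27), -0.08 (-0.28 to 0.11) and 0.08 (-0.11 to 0.28), and the first of these passed without control replicate 3 (0.22). SKIL did not pass in DESeq2 at any of these times either, and its intervals run from -0.28 to 0.32.

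Replicate 1 at 24 h lay nearest to the controls for several of these genes, but farthest from them for TGFB2 (63.8 CPM) and TGFB3 (1.33 CPM). It was the lowest of its group for TGFBR2 and SMAD7, and, picked after their values were seen, also for the ligand activator THBS1 (31.5 CPM, against 80.8 to 97.9 in the other 24 h libraries) and the target gene HMGA2 (14.3 against 26.4 to 30.6). Without it, the log2 fold changes at 24 h were 0.40 for TGFBR2 and 0.68 for SMAD7, and the count of genes that passed was still 6.

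Successive times were compared to see when the early changes ended. From 12 to 24 h, 5 of the 9 genes passed in edgeR, when 53.7% of all genes did. TGFB3 rose (27.9% of all genes higher), by a log2 difference of 1.25 ± 0.27 (SE; edgeR adjusted p = 0.000396, n = 4). TGFB1, TGFB2, TGFBR2 and SMAD7 fell (25.9% of all genes lower), by -1.09, -0.60, -0.36 and -0.80, and the largest edgeR adjusted p among them was 0.00185 (TGFBR2). The difference in TGFBR2 did not pass with factors per gene (-0.39). For TGFBR1 and SMAD3 the differences did not pass, at -0.01 (95% interval -0.20 to 0.17) and -0.07 (-0.25 to 0.12).

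From 24 to 48 h, 6 of 9 passed, when 50.2% of all genes did. TGFB2 rose (25.9% of all genes higher), by 0.68 ± 0.09 (edgeR adjusted p = 1.3e-06, n = 4), and all 48 h libraries lay above all 24 h libraries. The 5 genes that fell (24.3% of all genes lower) were TGFB1 (-0.42; edgeR adjusted p = 0.00752), TGFBR1 (-0.39; 0.00171), TGFBR2 (-0.35; 0.00272), SMAD7 (-0.40; 0.0121) and SMAD2 (-0.19; 0.0444). The difference in TGFBR2 was also lost with factors per gene (-0.35), that in SMAD7 did not pass without EGF 24 h replicate 2 (-0.33), and that in SMAD2 did not pass without EGF 24 h replicate 2, 3 or 4 or EGF 48 h replicate 1 or 2 (-0.20 to -0.15) or with most other settings. Scaled by library size alone, 3 of 9 passed, and none of these 5 genes did (log2 differences -0.27 for TGFB1, -0.23 for TGFBR1, -0.20 for TGFBR2, -0.25 for SMAD7 and -0.04 for SMAD2).

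From 48 to 72 h, 1 of 9 passed, when 35.7% of all genes did (17.9% higher and 17.9% lower). This was SMAD7, which rose by 0.38 ± 0.13 (edgeR adjusted p = 0.0229, n = 4) with 3 of 4 libraries at 72 h above all at 48 h. The call was lost without EGF 48 h replicate 3 or 4 or EGF 72 h replicate 1 or 3 (0.32 to 0.38), with library size alone (0.30) and with upper quartiles (0.34). Between times further apart, 6 of 9 passed at 48 against 12 h (70.3% of all genes), 6 of 9 at 72 against 12 h (67.6%) and 4 of 9 at 72 against 24 h (40.2%). At 72 against 12 h, TGFB1 (-1.63), TGFBR1 (-0.41), TGFBR2 (-0.51), SMAD2 (-0.32) and SMAD7 (-0.82) were lower and TGFB3 (1.49) was higher, with a largest edgeR adjusted p of 0.00109 among these 6. SMAD7 at 72 h did not differ detectably from 24 h (-0.02, 95% interval -0.27 to 0.23).

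The order of levels per kilobase of merged exons in the control was TGFB2 (20), TGFBR1 (16.5), SKIL (6.49), TGFBR2 (6.23), SMAD2 (4.18), TGFB1 (3.81), SMAD3 (2.28), SMAD7 (0.958), TGFB3 (0.439) and SMAD4 (0.00615 CPM per kb). The ranges of TGFB2 and TGFBR1 overlapped, as did those of SKIL and TGFBR2 and of SMAD2 and TGFB1, while the other neighbours in this order did not. The value depended on the length used. Merged exons of SMAD2 span 36.37 kb, but the shortest principal transcript is 12.08 kb, and with the latter its level was 12.6 CPM per kb. The shortest principal transcript also gave 16.5 for SKIL, 3.33 for SMAD3, 1.09 for SMAD7 and 0.856 for TGFB3. At 12 h, with merged exons, TGFBR1 (23.6 CPM per kb) and TGFB2 (22.0) were highest, and TGFB1 (12.1) lay above TGFBR2 (9.94) and SKIL (7.07). With the shortest principal transcripts, TGFB1 (14.2) lay below SKIL (18) at that time.

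Further genes of the pathway were taken from 3 lists, and are given by how many passed in edgeR (adjusted p under 0.05) beside the shares of all genes above. The first list held 22 genes of latency, activation and co-receptors, of which 19 were tested (LRRC32, ACVRL1 and EMILIN1 had at most 3 counts in any library). Of these, 12 rose and 2 fell at 12 h, 12 rose and 4 fell at 24 h, 9 rose and 2 fell at 48 h, and 11 rose and 3 fell at 72 h. The median log2 fold change was 0.68, 0.42, 0.35 and 0.56 at the 4 times. THBS1, thrombospondin 1, which activates latent TGF-beta, had 20.6 CPM ± 1.39 in the control (SD, n = 4), rose to 140 ± 5.48 at 12 h (log2 fold change 2.76) and was 59.2 ± 11.4 at 72 h. LTBP2, a latent TGF-beta binding protein homologue of the matrix, rose from 1.87 ± 0.515 CPM to 14.6 ± 0.888 at 24 h (2.97). The pseudoreceptor BAMBI rose from 10.3 ± 1.35 to 31.7 ± 2.02 CPM at 12 h (1.62), and the co-receptor CD109, which promotes breakdown of TGF-beta receptors, from 214 ± 23.6 to 827 ± 53.3 CPM at 24 h (1.95). LTBP3, which helps secrete the latent complex, was higher at 48 h (1.39). LTBP1 fell at 12 h (-0.68). The integrin subunit ITGB6, whose dimer with ITGAV releases TGF-beta, fell to 42.9 ± 4.24 CPM at 24 h from 85.8 ± 14.4 (-1.0). ITGAV also fell at 24 h (-0.55), and ITGB6 stood at 104 ± 19.7 CPM at 48 h. AC092153.1 shares 20.6% of the exon bases of ITGB6 on the same strand, so part of the ITGB6 counts could belong to it. TGFBR3, the co-receptor that presents TGFB2, was 13.2 ± 1.16 CPM at 12 h against 9.60 ± 2.24 in the control, and fell to 4.45 ± 0.511 at 72 h (-1.12). TGFBRAP1, a receptor-associated protein, fell slightly at 48 and 72 h (-0.22 and -0.36).

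The second list held 28 regulators of the signal, of which 26 were tested (SMAD9 and FOXH1 were too low). Of these, 16 rose and 4 fell at 12 h, 13 rose and 4 fell at 24 h, 5 rose and 6 fell at 48 h, and 10 rose and 8 fell at 72 h. The median log2 fold change was 0.38, 0.16, -0.00 and 0.02. NEDD4L, SMURF1 and SMURF2, which are ubiquitin ligases that SMAD7 brings to the receptor, were among the regulators that rose. NEDD4L rose from 30.2 ± 2.27 CPM (SD, n = 4) to 119 ± 7.56 at 12 h (log2 fold change 1.98), and was 54.6 ± 4.11 at 48 h and 95.7 ± 4.46 at 72 h. SMURF1 rose from 42.3 ± 1.57 to 157 ± 3.35 CPM at 12 h (1.89), and SMURF2 rose by 1.5 at that time and by 0.39 at 48 h. The mean levels of SMAD7, NEDD4L and SMURF1 were all highest at 12 h, lowest among the EGF times at 48 h, and between these at 72 h. LDLRAD4, a membrane protein that keeps SMAD2 and SMAD3 from the receptor, fell from 41.2 ± 3.61 to 8.36 ± 0.265 CPM at 12 h (-2.30) and to 13.2 ± 0.971 at 72 h (-1.64). SMAD1, which transduces the signals of bone morphogenetic proteins, fell from 56.9 ± 4.41 to 21.7 ± 1.22 CPM at 12 h (-1.39) and stood at 50.9 ± 2.04 at 48 h. ZFYVE16, an endosomal protein that binds SMADs, fell at all 4 times (-0.64, -0.43, -0.44 and -0.50 in order), and its calls at 12 and 24 h were lost with factors per gene from the deposited normalized values (-0.45 and -0.23). The co-repressor SKI rose at 12 h (0.50) and fell at 48 and 72 h (-0.35 and -0.42), and the coactivator CREBBP fell at 72 h (-0.52). The inhibitory SMAD6 fell at 12 h (-0.60; edgeR adjusted p = 0.00657) and at 48 h (-0.47), and the call at 48 h was lost with several other settings and without control replicate 1 or 3 or EGF 48 h replicate 1 or 2 (-0.49 to -0.29).

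The third list held 28 genes known as targets of TGF-beta in epithelial cells, of which 23 were tested. SNAI2 had 0 counts in every library, and COL7A1, ADAM12, ADAM19 and MMP9 were too low. Of the 23, 17 rose and 3 fell at 12 h, 15 rose and 4 fell at 24 h, 13 rose and 3 fell at 48 h, and 17 rose and 3 fell at 72 h. The median log2 fold change was 1.27, 0.70, 0.65 and 0.99. HMGA2, a chromatin protein of mesenchymal cells, rose from 0.524 ± 0.161 CPM (SD, n = 4; 8 to 16 counts) to 35.2 ± 0.798 at 12 h (log2 fold change 6.06) and was 4.09 ± 1.10 at 48 h and 13.0 ± 1.75 at 72 h. TAGLN, an actin-binding protein, rose at 12 h from 1.43 ± 0.231 to 18.5 ± 1.75 CPM (3.69) and had fallen to 0.727 ± 0.157 at 72 h (-1.0). The cell cycle inhibitor CDKN2B, which TGF-beta induces in epithelial cells, fell at 12 h from 36.3 ± 5.52 to 15.9 ± 1.85 CPM (-1.19). The collagen chain COL4A2 fell at 12 h from 6.74 ± 0.90 to 1.34 ± 0.224 CPM (-2.33) and was 6.90 ± 0.532 at 48 h. The stress-response gene GADD45B fell at all 4 times, by -0.26, -1.07, -0.61 and -0.82, of which the first was lost without control replicate 4 or EGF 12 h replicate 1 or 4 (-0.24 to -0.21). The matrix protein CCN1 rose at 12 h (0.42), when its libraries overlapped the controls, and fell at 24, 48 and 72 h (-0.86, -0.45 and -0.49). At 12 h, 73.7% of the tested genes of the first list, 76.9% of the second and 87% of the third passed, against 69.4% of all genes. The shares were 84.2%, 65.4% and 82.6% at 24 h, against 58.8%, and 57.9%, 42.3% and 69.6% at 48 h, against 45.8%. At 72 h they were 73.7%, 69.2% and 87.0%, against 61.6%. Many of the target genes are also targets of EGF signaling, and no sample here received TGF-beta or an inhibitor of its receptor, so the sources of these changes cannot be told apart.

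**Figure D4:**
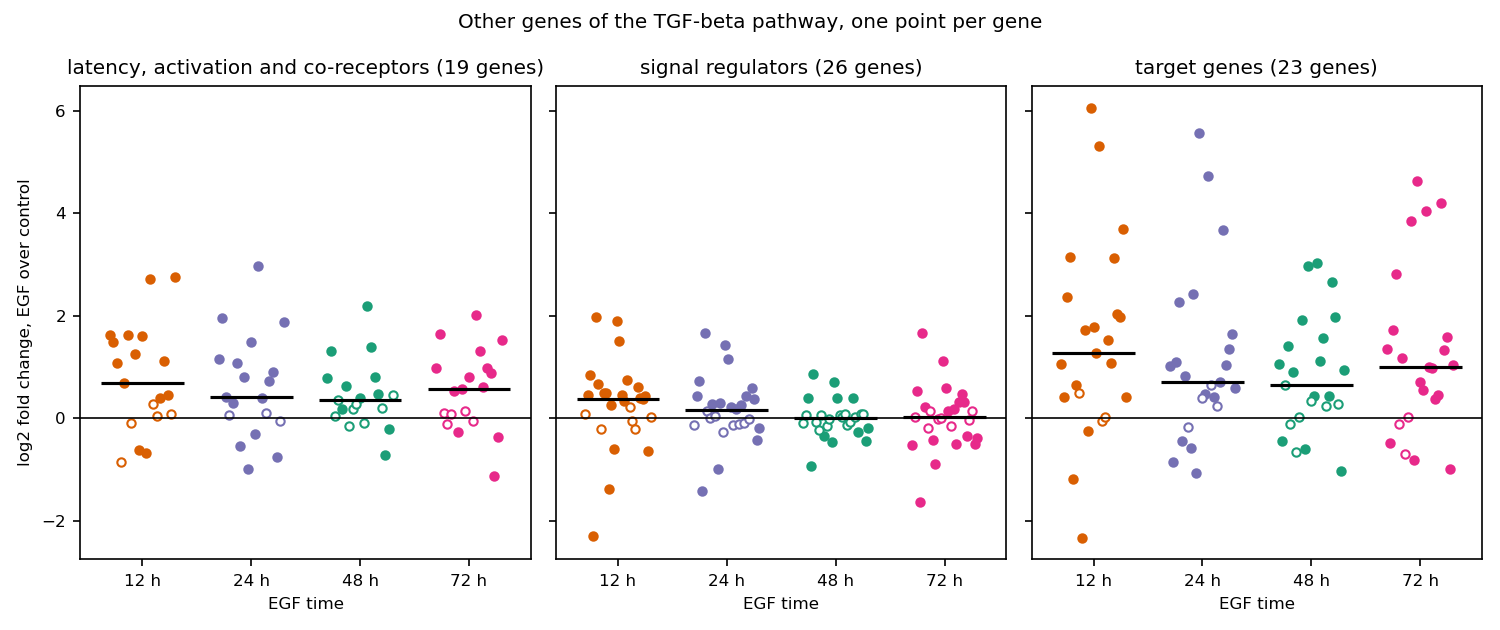
Log2 fold change against the untreated control (vertical axis) of the tested genes of 3 TGF-beta lists (19, 26 and 23 genes) at the 4 EGF times. Filled points passed an adjusted p under 0.05 in edgeR and open points did not, and black lines are medians. The target genes had the highest medians at every time (1.27, 0.70, 0.65 and 0.99), and the regulators spread around 0 at 48 and 72 h.

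The genes whose log2 CPM followed each member most closely over the 20 libraries were listed as a description, among genes with a mean of at least 5 CPM. The libraries share 5 group means, so such values mostly reflect the course over time. TGFB1 was followed by JPT1 and RHBDF2 (Pearson r = 0.98 each), SMAD7 by RDH13 (0.98) and LRRC8A (0.97), and TGFBR1 by MTHFD2 (0.97) and CLIC4 (0.96). SMAD3 was followed by LIPE (0.97) and C19orf33 (0.96), TGFBR2 by CHSY1 and CTTNBP2NL (0.96 each), and SMAD2 by BARD1 (0.96) and CSE1L (0.95). Values were lower for SKIL with UBE2W and SPOPL (0.94 each), TGFB3 with SNX19 and NEURL1B (0.93 each) and TGFB2 with MGME1 (0.88) and CDRT1 (0.86). Among the members themselves, SMAD7 was closest to TGFB1 (0.90) and TGFBR2 (0.87), and TGFB3 had a negative correlation with TGFB1 (-0.82). Within the control, however, both TGFB1 and TGFB3 were highest in replicate 2 and lowest in replicate 3.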

How the data were processed

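RNA of MDA-MB-468 cells in 6-well plates was made into Lexogen Corall mRNA libraries and read as single-end reads by the authors. The deposited estimated counts, whole numbers per gene and library that are not normalized, were used as deposited. The authors also deposited normalized values, a score that they made with DESeq2, which served only for 1 alternative. The authors' fold changes and p-values were not used. The build is hg38 in the submitters' processing notes. The aligner, the annotation, the use of strand and the handling of unique molecular identifiers are not given in the sources used here, so counts may hold PCR duplicates.

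Counts were fitted in edgeR 4.0.16 and limma 3.58.1 (R 4.3.3) with TMM scaling, filterByExpr (16522 genes kept of 33535 with at least 1 count) and 1 mean per group over all 20 libraries. The quasi-likelihood test in its robust form was used, after testing the scripts on simulated data. Within each comparison, p-values were adjusted by Benjamini and Hochberg's method over all genes that passed the filter, and the threshold was 0.05. Intervals are 95%. P-values measure the spread between replicate wells. Positions, lengths and overlaps came from GENCODE 29 and promoters from RefSeq (GRCh38.p14). Exons of some list genes lie opposite those of other genes, such as SMURF1 (11.7%, TRRAP) and TAGLN (11.4%, PCSK7). No list was tested as a set.

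The members, lists and comparisons were chosen with earlier results of these data known. Named list genes were the 3 largest rises and falls per list and time, among genes that passed, with a mean of at least 1 CPM and groups that did not overlap. Some genes that this rule names are not reported here. Alternatives were library size alone, upper quartiles, DESeq2 size factors, the DESeq2 1.42.0 Wald test, other filters, the 8 libraries compared, a replicate block, factors per gene computed as raw over normalized values (where no library had under 20 counts) and leaving out each library. TGFB3, with 9 counts in its lowest library, was absent from the fit with factors per gene. It was also absent from that with at least 10 counts in every library. Lengths of the shortest principal transcripts were added after seeing the data.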

Additional observations from a re-analysis of the deposited data

Results flagged for a closer look

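In 3 of 50 groups of 4 libraries, 1 library stood apart from the other three of its group by Dixon's test, which chance alone flags in about 1 of 20 groups. TGFB1 at 24 h was highest in replicate 3 (21.7 CPM, against 17.3 to 17.5 in the others), and TGFB1 at 72 h was lowest in replicate 2 (11.3 CPM, against 13.2 in each of the others). TGFB2 at 12 h was highest in replicate 4 (120 CPM, against 111 to 112). No value of these libraries was left out for it.

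TGFB2 passed in opposite directions at 24 and 48 h against the control (log2 fold changes -0.45 and 0.23). The difference between the 2 times was itself tested, at 0.68 with an edgeR adjusted p of 1.3e-06 (n = 4), and all 48 h libraries lay above all 24 h libraries. The rise at 48 h on its own rested on single libraries.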

How the results depend on the processing

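Counts of genes that passed stayed within 1.5 times of the reported ones except as follows. At 48 h, 1 passed instead of 2 with factors per gene and with the 8 libraries alone. At 72 h, 5 passed instead of 3 with at least 10 counts in every library. Between 24 and 48 h, 3 passed instead of 6 with library size alone. Between 48 and 72 h, 0 passed instead of 1 with upper quartiles. Regulators that passed were 11 instead of 17 at 24 h with factors per gene and 7 instead of 11 at 48 h with the 8 libraries alone. Leaving out 1 library gave 1 to 2 members at 48 h and 0 to 2 between 48 and 72 h. The cause was not tested.

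Only log2 fold changes that had not passed turned direction. With library size alone these were TGFB1 at 72 h (-0.036), TGFB2 at 12 h (-0.14), SMAD2 at 12 and 24 h (-0.277 and -0.132) and SKIL at 12 and 24 h (-0.158 and -0.066). With upper quartiles they were TGFB2 (-0.02), SMAD2 (-0.15) and SKIL (-0.034) at 12 h and SMAD2 at 24 h (-0.034). SMAD2 at 12 h also turned with at least 10 counts in every library (-0.031). With factors per gene, SMAD2 at 24 h (-0.058), SMAD7 at 48 h (-0.005) and SKIL at 48 h (0.25) turned. Leaving out 1 library turned TGFB1 at 72 h (-0.048 to 0.164), TGFB3 at 48 h (-0.17 to 0.12), SMAD2 at 12 h (-0.046 to 0.090) and 24 h (-0.043 to 0.093) and SKIL at 48 h (-0.156 to 0.019). Library size alone moved the median of all genes by -0.28 at 12 h and -0.14 at 24 h, and upper quartiles by -0.16 at 12 h, so changes are relative to that shift.

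Deviations of same-numbered replicates had correlations of -0.24 to 0.35 (median 0.009 over 40 pairs, against -0.004 for other numbers). Of 20 libraries, 8 were closest to one of their own number. Such weak correlations cannot settle whether the numbers pair samples. With a replicate block, TGFB2 at 72 h (0.19) and SMAD2 at 48 h (-0.18) passed and no member's call was lost. Below about 1 CPM, counts are too few for small changes to be seen.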
